A study of Saccharomyces cerevisiae with 4 samples.

Results

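The genes described are the 8 enzymes of heme synthesis in budding yeast, HEM1, HEM2, HEM3, HEM4, HEM12, HEM13, HEM14 and HEM15, together with the regulator genes HAP1 and ROX1. They were taken as every probe set that the platform annotation gives to 1 of these 10 gene symbols, which yielded 12 probe sets for 10 of the 5656 genes named on the array. HAP1 had 3 probe sets and each other gene had 1. All 10 genes passed the filter on dim signals and none was left out.

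Transcripts were measured in Saccharomyces cerevisiae expressing the Snf1-I132G protein and in cells expressing the wild-type Snf1 protein. Snf1 is the AMP-activated protein kinase of yeast, required when glucose is short, and the I132G change opens it to the pyrazolopyrimidine inhibitor 2NM-PP1. Cells of both groups grew in SC-ura medium with 2% glucose, spent 120 min in 2% raffinose with 0.05% glucose, and had 25 µM 2NM-PP1 added for a further 40 min. Each strain's RNA was a pool of 3 transformants, hybridized in duplicate, giving 2 Affymetrix Yeast Genome S98 arrays for Snf1-I132G and 2 for Snf1. Since 2NM-PP1 was added to all cells, inhibition of the kinase and the I132G allele itself cannot be told apart, and no other part of the strain genotype is stated. The labels do not say whether the duplicates are separate cultures, so the p-values here cover array-to-array spread only, which may be technical.

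Heme is the iron-containing ring that cytochromes, catalases and sterol desaturases carry. In yeast it is made in steps that begin in the mitochondrion, pass through the cytosol and end in the mitochondrion, and later steps need oxygen. Heme also signals oxygen to the nucleus: it activates Hap1, a zinc-cluster activator of respiratory and oxidative stress genes, and Hap1 in turn activates ROX1, whose product represses genes used when oxygen is scarce. HEM13, for the oxygen-requiring coproporphyrinogen oxidase, is a classical target of that repression.

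The values are signals made with MAS5 on a linear scale and already scaled alike on each array. Each difference is Snf1-I132G minus Snf1 on the scale log2(signal + 16), from a limma fit over 6956 probe sets, with Benjamini-Hochberg adjustment over all of them and a threshold of 0.05. Snf1-I132G arrays had median signals of 131.9 and 139.4, Snf1 arrays of 151.6 and 161.3, and the median log2 difference of all tested probe sets was -0.10. In the sample descriptions the same-numbered arrays of both groups share a string, taken here, without certainty, to stand for a common run. A fit with the array number as a block is therefore given where it changes the call of a gene described. SNF1 itself had signals of 797 and 889 in Snf1-I132G, against 981 and 1015 in Snf1. With an adjusted p of 0.281 in limma, its log2 difference of -0.24 ± 0.15 (SE) missed the threshold, and since the I132G change alters the protein this level does not check the labels.

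Of the 8 enzyme genes 1 fell in Snf1-I132G, HEM2, and 7 did not pass. Across all tested probe sets 17.4% were called lower and 10.2% higher, and at 1 probe set per named gene 19.9% and 9.03%. The share of the 8 is thus no larger than that of the array as a whole. The median log2 difference of the 8 genes was -0.18, beside -0.10 for all tested probe sets and -0.16 with 1 probe set per named gene. With the block 3 of the 8 were lower, HEM2, HEM14 and HEM15. In that fit 28.5% of all probe sets were lower, and 31.8% at 1 probe set per named gene. In 3 of the 8, the same genes, the Snf1-I132G arrays both lay below both Snf1 arrays, and 40.9% of all tested probe sets did so.

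**Figure D1:**
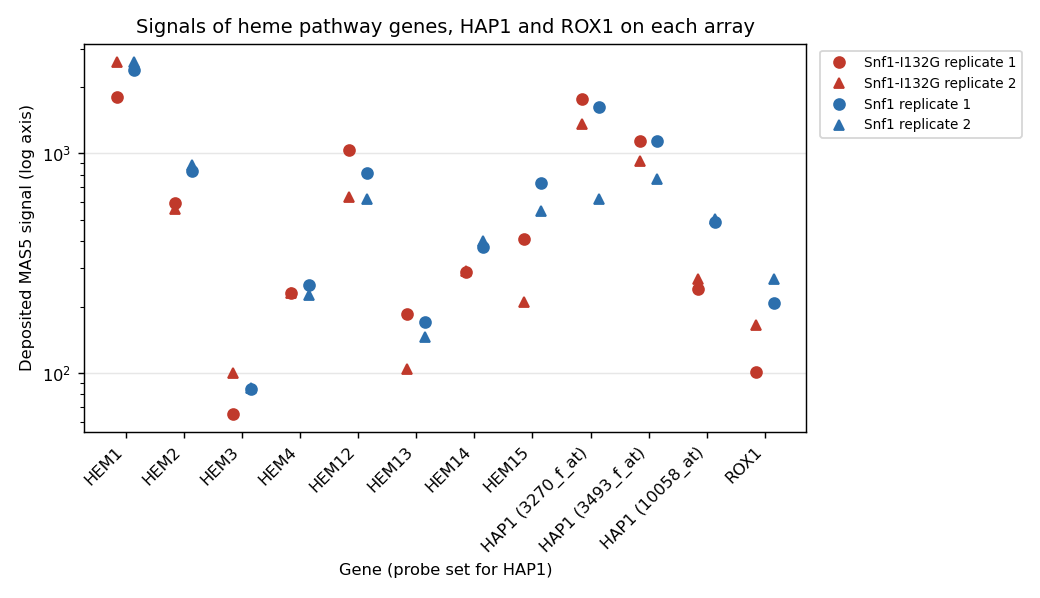
The deposited MAS5 signal (log axis) of each heme synthesis gene, ROX1 and the 3 HAP1 probe sets is plotted for the 2 Snf1-I132G arrays (red) and the 2 Snf1 arrays (blue), with circles for replicate 1 and triangles for replicate 2. HEM2, HEM14, HEM15, ROX1 and the HAP1 probe set 10058_at have no overlap between the groups, while both HAP1 probe sets ending in _f_at overlap.

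HEM1 encodes 5-aminolevulinate synthase, which joins glycine and succinyl-CoA in the mitochondrial matrix to open the pathway. Its signals were 1812 and 2615 in Snf1-I132G, against 2392 and 2617 in Snf1. Both replicate 2 arrays were nearly equal and the lowest value was that of Snf1-I132G replicate 1. The log2 difference was -0.20 ± 0.21 (SE), with a 95% interval of -0.73 to 0.33, and it did not pass (limma, adjusted p = 0.518).

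HEM2, for the cytosolic 5-aminolevulinate dehydratase that forms porphobilinogen, had signals of 595 and 557 in Snf1-I132G, against 832 and 886 in Snf1. The groups stood clear of each other and each pair of duplicates was tight, at 576 ± 26.6 and 859 ± 37.8 (SD, n = 2). HEM2 fell by 0.56 ± 0.15 on the log2 scale (limma, adjusted p = 0.0413, and 0.00704 in the blocked fit), to 0.670 of the Snf1 mean. The difference was -0.47 between the replicate 1 arrays and -0.65 between the replicate 2 arrays. Of all tested probe sets 22.7% had a lower log2 difference than HEM2. The call lay close to the threshold and was lost with quantile normalization (limma, adjusted p = 0.117) and with median centring (0.128). It was also lost in each of the 4 fits that left out 1 array, where the difference ran from -0.61 to -0.52.

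The cytosolic steps that follow gave overlapping groups. HEM3, for porphobilinogen deaminase, was the 1 member whose mean fell short of a filter at the 50th percentile, with signals of 65.0 and 101 in Snf1-I132G, against 84.97 and 85.74 in Snf1. The Snf1-I132G duplicates fell on either side of the Snf1 values, and the log2 difference was -0.06 ± 0.23 (limma, adjusted p = 0.857). HEM4, for uroporphyrinogen III synthase, had signals of 233 and 232 in Snf1-I132G, against 251 and 226 in Snf1. Its 4 arrays were close together, and the log2 difference was -0.03 ± 0.16, with a 95% interval of -0.44 to 0.38 (limma, adjusted p = 0.89).

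HEM12 encodes uroporphyrinogen decarboxylase, the last cytosolic step before the oxygen-requiring ones. Its signals were 1031 and 635 in Snf1-I132G, against 818 and 621 in Snf1. In both groups the replicate 1 array was the higher, and the log2 difference was 0.18 ± 0.28, not past the threshold (limma, adjusted p = 0.651). It was the 1 enzyme gene with a positive estimate on the deposited scale, and that estimate was negative with centring on hybridization controls.

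HEM13, for coproporphyrinogen oxidase, had signals of 185 and 105 in Snf1-I132G, against 171 and 145 in Snf1. The Snf1 arrays lay within the range of the Snf1-I132G arrays. The log2 difference was -0.16 ± 0.28, with a 95% interval of -0.86 to 0.54 (limma, adjusted p = 0.702), at 0.10 between the replicate 1 arrays and -0.42 between the replicate 2 arrays. HEM12 and HEM13 lie close together in the RefSeq gene order, separated by RPC11 and BAP3. Both had a higher signal on the replicate 1 array in each group. HEM4, HEM15 and both HAP1 probe sets ending in _f_at did so too, so this was not particular to the neighbours.

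The 2 enzymes of the final mitochondrial steps had lower signals in Snf1-I132G on every array. HEM14, for protoporphyrinogen oxidase, had signals of 289 and 293 in Snf1-I132G, against 375 and 398 in Snf1. The groups did not overlap, the pair differences were -0.36 and -0.43, and the log2 difference was -0.39 ± 0.16, past the threshold with the block (limma, adjusted p = 0.0471) and not without it (0.119).

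HEM15, for ferrochelatase, which inserts iron into protoporphyrin, had signals of 408 and 211 in Snf1-I132G, against 732 and 545 in Snf1. Both Snf1-I132G values were below both Snf1 values, although the duplicates of each group were far apart. The log2 difference of -1.06 ± 0.33 was the most negative of the 12 probe sets on the deposited scale, with 8.12% of all tested probe sets below it. It did not pass (limma, adjusted p = 0.0648), and it did with the block (0.000683). The replicate 1 arrays differed by -0.82 and the replicate 2 arrays by -1.30. Without replicate 1 of Snf1-I132G the difference was -1.51 and passed (limma, adjusted p = 0.0195).

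**Figure D2:**
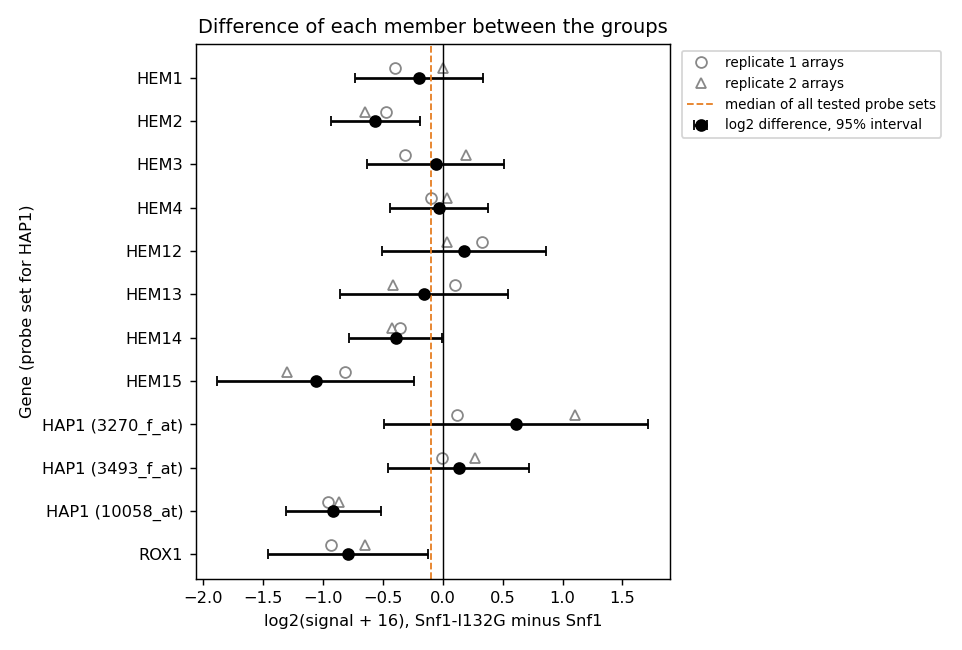
Black points give the log2 difference, Snf1-I132G minus Snf1, of each probe set with its 95% interval from limma, open symbols the difference between the same-numbered arrays, and the dashed line the median of all tested probe sets at -0.10. The intervals of HEM2, HEM14, HEM15, ROX1 and HAP1 (10058_at) lie below 0, and after adjustment over all probe sets HEM2 and HAP1 (10058_at) passed.

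HAP1 gave different answers on its 3 probe sets. On probe set 10058_at, the one with a plain _at name, the signals were 242 and 268 in Snf1-I132G, against 486 and 501 in Snf1. The groups were far apart compared with the duplicates, at 255 ± 18.8 and 494 ± 11.1 (SD, n = 2), so the Snf1-I132G mean was 0.516 of the Snf1 mean. HAP1 fell by 0.91 ± 0.16 on the log2 scale on this probe set (limma, adjusted p = 0.0128). The pair differences were -0.96 and -0.86. It passed under all 3 other scalings of the arrays, and it did not without replicate 1 of Snf1 (limma, adjusted p = 0.0755) or without replicate 2 of Snf1 (0.0887).

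The other HAP1 probe sets carry the suffix _f_at, which the array's maker uses for probe sets that can match a family of transcripts. Probe set 3270_f_at, the brightest and so the one taken by the rule of highest mean, had signals of 1767 and 1359 in Snf1-I132G, against 1626 and 622 in Snf1. The low value of Snf1 replicate 2 stood apart from the other 3 arrays. Its log2 difference was 0.61 ± 0.44, called higher with the block (limma, adjusted p = 0.0362) and not without it (0.344). Leaving out replicate 1 of Snf1 gave 1.29 (limma, adjusted p = 0.0312) and leaving out replicate 2 of Snf1 turned it to -0.07 (0.897).

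Probe set 3493_f_at had signals of 1134 and 923 in Snf1-I132G, against 1136 and 763 in Snf1, with a log2 difference of 0.13 ± 0.24 (limma, adjusted p = 0.697). The groups overlapped on both _f_at probe sets. In the RefSeq gene order of the S288C reference strain HAP1 is followed by YLR256W-A, and as background that strain is known to carry a Ty1 retrotransposon inserted at the end of HAP1. Whether the strains measured carry the insertion, and which transcripts the _f_at probe sets match, is not stated in the sources used here. With HAP1 at 10058_at, a choice made after its values were seen, 2 of the 10 genes fell, HEM2 and HAP1. At the brightest probe set 1 of 10 did, where 19.9% of all 5202 genes tested at 1 probe set each were lower. Without replicate 1 of Snf1, HEM2 was at -0.61 and HAP1 (10058_at) at -0.94. Without replicate 2 of Snf1 they were at -0.52 and -0.89.

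ROX1 encodes the repressor of hypoxic genes. Its signals were 101 and 165 in Snf1-I132G, against 208 and 268 in Snf1. The groups did not overlap, and in each group the replicate 2 array was the higher. Its log2 difference was -0.79 ± 0.27, past the threshold with the block (limma, adjusted p = 0.0041) and not without it (0.0817), with pair differences of -0.93 and -0.65. The Snf1-I132G mean was 0.560 of the Snf1 mean, and 14.7% of tested probe sets had a lower log2 difference. Without replicate 2 of Snf1-I132G the difference was -1.11 and passed (limma, adjusted p = 0.0386).

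The order of the log2 differences, from the lowest, was HEM15, HAP1 (10058_at), ROX1, HEM2, HEM14, HEM1, HEM13, HEM3, HEM4, HAP1 (3493_f_at), HEM12 and HAP1 (3270_f_at). The 95% intervals of neighbours in this order overlapped throughout, so the order of neighbours is not resolved by these arrays.

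Scaling the arrays in other ways moved the estimates. Quantile normalization put the median over all tested probe sets at 0.02, median centring put it at 0.09, and a centring on 9 hybridization control probe sets at -0.33. With HAP1 at 10058_at the fallen genes numbered 1 of 10 (HAP1) under quantile normalization, 1 (HAP1) under median centring and 5 (HAP1, HEM2, HEM14, HEM15 and ROX1) under control centring. In those fits 13.1%, 11.7% and 30.4% of all probe sets were lower, counted over probe sets and not at 1 probe set per gene. The estimates of HEM3, HEM4 and HEM13 were negative on the deposited scale and positive under quantile normalization and median centring, and that of HEM12 was negative under control centring, none of them past the threshold.

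**Figure D3:**
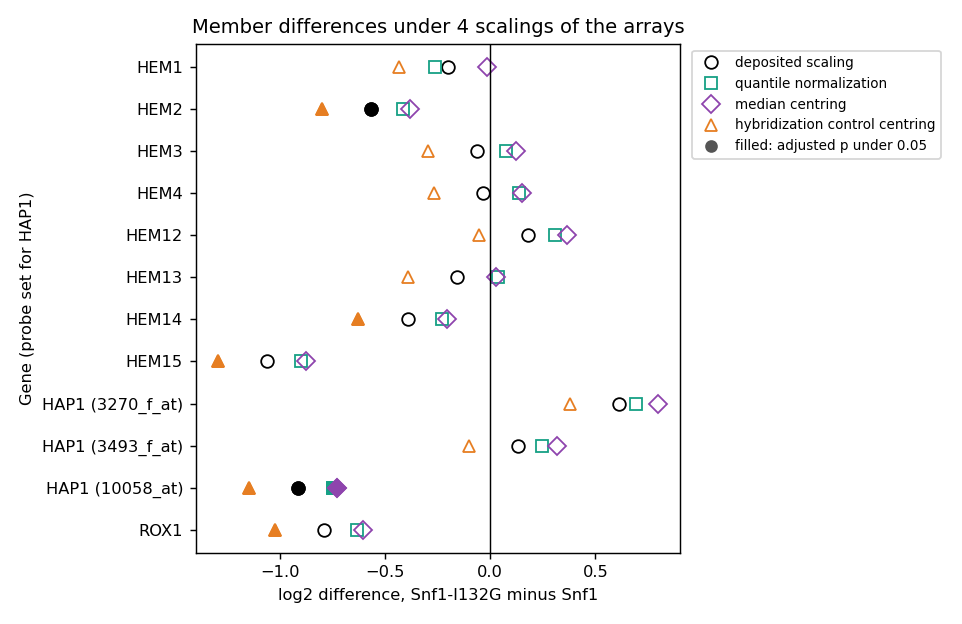
The log2 difference, Snf1-I132G minus Snf1, of each probe set is shown under the deposited scaling (circles), quantile normalization (squares), median centring (diamonds) and hybridization control centring (triangles), with filled symbols for an adjusted p under 0.05 in limma. HAP1 (10058_at) is filled under all 4 scalings and HEM2 under 2, while HEM3, HEM4, HEM12 and HEM13 lie on either side of 0.

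The other genes of heme supply and use were described from lists chosen by function, each gene at its brightest probe set. The lists were drawn up with earlier results of these data known, so their counts are a description and no independent evidence. On that basis 19.9% of all 5202 tested genes were lower and 9.03% higher, and with the block 31.8% were lower and 17.5% higher.

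Among 7 genes that supply the precursors of HEM1, 3 fell, 1 rose and 3 did not pass, with a median log2 difference of -0.11. The 3 that fell encode the subunits of 2-oxoglutarate dehydrogenase, the mitochondrial source of succinyl-CoA. KGD2 had signals of 944 and 897 in Snf1-I132G, against 3511 and 2911 in Snf1, and differed by -1.78 ± 0.16 log2 units (limma, adjusted p = 0.00311). KGD1 was at -1.19 ± 0.15 (0.00595) and LPD1 at -0.87 ± 0.18 (0.021). LPD1 did not pass with median centring (limma, adjusted p = 0.0708), without replicate 1 of Snf1 (0.133) or without replicate 2 of Snf1-I132G (0.0658), which left 2 falls.

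GLY1, for the threonine aldolase that makes glycine, rose, with signals of 5304 and 6139 in Snf1-I132G, against 2383 and 3064 in Snf1. Its log2 difference was 1.07 ± 0.19 (limma, adjusted p = 0.0132), and without replicate 1 of Snf1 it was 0.89 and did not pass (0.0783). HEM25, the mitochondrial glycine carrier gene, was at 0.26 ± 0.21, and the serine hydroxymethyltransferase genes SHM1 and SHM2 were at -0.11 ± 0.15 and 0.07 ± 0.21, none past the threshold.

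None of 3 genes that bring iron to mitochondria passed. The mitochondrial iron carrier genes MRS3 and MRS4 were at 0.46 ± 0.34 and -0.15 ± 0.16, and the frataxin gene YFH1, for a protein of iron-sulfur cluster and heme assembly, at -0.40 ± 0.20, with adjusted p of 0.346, 0.499 and 0.187 in limma. MRS3 signals were 348 and 687 in Snf1-I132G, against 309 and 398 in Snf1, so its groups overlapped, and without replicate 1 of Snf1-I132G its difference was 0.94 and passed (limma, adjusted p = 0.0452).

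Among 6 genes that modify heme or attach it to cytochromes 2 fell, 1 rose and 3 did not pass, with a median log2 difference of -0.70. CYT2, for the heme lyase of cytochrome c1, had signals of 196 and 183 in Snf1-I132G, against 344 and 365 in Snf1, and differed by -0.85 ± 0.16 log2 units (limma, adjusted p = 0.0162). COX10, for the heme A synthesis farnesyltransferase, was at -0.80 ± 0.19 (0.0295). YAH1, for a mitochondrial ferredoxin that serves heme A and iron-sulfur synthesis, rose, with signals of 2236 and 2795 in Snf1-I132G, against 851 and 830 in Snf1, a difference of 1.55 ± 0.17 (0.0044). ARH1, for the reductase that passes electrons to Yah1, was at -0.61 ± 0.20 (0.0743, and 0.0144 in the blocked fit), so the estimates for this electron-transfer couple had opposite signs. With the block 5 of the 6 were lower, and without replicate 1 of Snf1, or without replicate 2 of Snf1, none was.

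Neither of 2 tested genes of heme breakdown and binding passed: the heme oxygenase gene HMX1 was at -0.14 ± 0.20 (limma, adjusted p = 0.622) and the heme-binding protein gene DAP1 at -0.57 ± 0.25 (0.149, and 0.00892 in the blocked fit). The remaining gene of that list, the porphyrin transporter gene PUG1, was too dim to be tested, with signals of 35.0 and 41.7 in Snf1-I132G, against 32.6 and 26.8 in Snf1. Siroheme, the cofactor of sulfite reductase, branches from the pathway after HEM4, and its genes MET1 and MET8 were at 0.47 ± 0.21 (limma, adjusted p = 0.153, and 0.042 in the blocked fit) and 0.21 ± 0.21 (0.482).

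Among 14 tested genes for heme proteins and related heme-dependent oxidases and reductases, 6 fell, none rose and 8 did not pass. Their median log2 difference was -0.64, beside -0.16 for all genes tested at 1 probe set each. With the block 11 were lower and 1, the fatty acid hydroxylase gene SCS7, was higher. Without replicate 2 of Snf1 the list median was -0.80, but fewer of the 14 were called lower than with all arrays. Leaving out any of the other arrays put the list median at -0.61 to -0.56. The largest fall of the 14 was that of CYB2, the lactate dehydrogenase called cytochrome b2, with signals of 297 and 279 in Snf1-I132G, against 803 and 1422 in Snf1 and a difference of -1.84 ± 0.28 (limma, adjusted p = 0.00939).

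CYT1, for cytochrome c1, was at -1.52 ± 0.22 (limma, adjusted p = 0.00786), the cytosolic catalase gene CTT1 at -1.46 ± 0.16 (0.0043) and CYC7, for the minor cytochrome c isoform, at -1.17 ± 0.17 (0.00809), which missed the threshold without replicate 2 of Snf1 (0.0505). CTA1, the peroxisomal catalase gene, and OLE1, the fatty acid desaturase gene, completed the 6 falls, at -1.27 ± 0.28 (0.025) and -0.61 ± 0.15 (0.0349). CTA1 had signals of 23.42 and 17.55 in Snf1-I132G, against 52.73 and 96.27 in Snf1. Both Snf1-I132G values lay below the filter level, a signal of 33.93. CTA1 was thus tested only because its Snf1 arrays were brighter, and its fall is no independent evidence. With a filter at the 50th percentile, which leaves out CTA1, 5 of 11 tested heme protein genes were lower, at a median of -0.68. The ferric reductase gene FRE2 and DIT2, a spore wall cytochrome P450 gene, were too dim to be tested.

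CYC1, the gene for the main cytochrome c isoform, and CYC3, for its heme lyase, showed the same split of the Snf1-I132G duplicates. CYC1 had signals of 743 and 1922 in Snf1-I132G, against 2453 and 2604 in Snf1, and CYC3 had 1090 and 2402, against 3188 and 3534. Replicate 1 of Snf1-I132G was the lowest array for both, and neither passed, at -1.07 ± 0.43 (limma, adjusted p = 0.122, and 0.00671 in the blocked fit) and -1.04 ± 0.37 (0.0887, and 0.00291 in the blocked fit). Both were chosen after their values were seen.

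**Figure D4:**
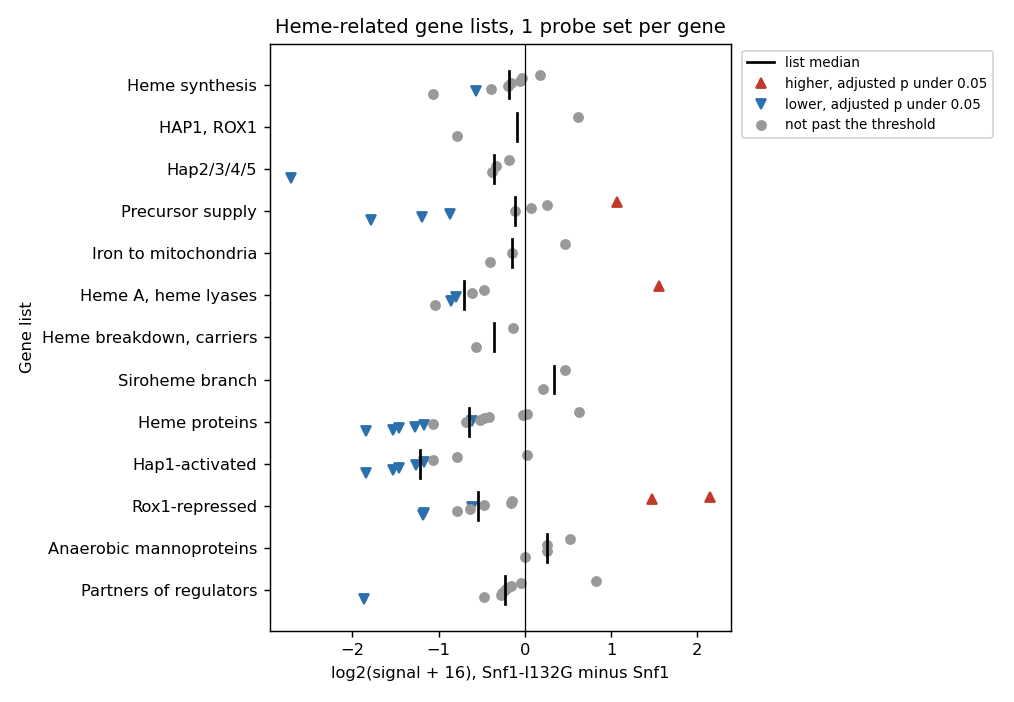
Each point is 1 tested gene at its brightest probe set, plotted by its log2 difference, Snf1-I132G minus Snf1, in 13 lists, with triangles for genes past an adjusted p of 0.05 in limma and black bars for list medians. The Hap1-activated and heme protein lists hold falls and no rise, the Rox1-repressed list holds 2 rises and 3 falls, and some genes stand in more than 1 list. HAP1 is plotted at 3270_f_at.

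Genes known as targets of Hap1 were mostly lower. Of 8, ROX1 included, 5 fell and 3 did not pass, at a median log2 difference of -1.22, and with the block 7 were lower. The 5 were CYB2, CYT1, CTT1, CYC7 and HMG1, and the first 4 are also in the heme protein list. HMG1, for an HMG-CoA reductase of sterol synthesis, had signals of 488 and 332 in Snf1-I132G, against 1041 and 941 in Snf1, and differed by -1.26 ± 0.22 log2 units (limma, adjusted p = 0.0127). YHB1, the flavohemoglobin gene, was at 0.03 ± 0.27 on its brightest probe set (0.944), and its other 2 tested probe sets gave -0.67 ± 0.30 and -0.23 ± 0.32, neither past the threshold, though the first was with the block (limma, adjusted p = 0.0381). Several of these genes also answer to the Hap2/3/4/5 complex, as background, and the share of Hap1 in these differences was not tested.

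The Hap2/3/4/5 complex is the heme- and carbon-source-responsive activator of respiratory genes, and HAP4 encodes its regulated activating subunit. HAP4 had signals of 208 and 318 in Snf1-I132G, against 1753 and 1799 in Snf1, and differed by -2.71 ± 0.22 log2 units (limma, adjusted p = 0.00258). The DNA-binding subunit genes HAP2, HAP3 and HAP5 were at -0.39 ± 0.19, -0.34 ± 0.18 and -0.19 ± 0.17 and did not pass, so 1 of the 4 fell.

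Genes known as targets of Rox1 repression did not move one way. Of 10, HEM13 and ROX1 included, 2 rose, 3 fell and 5 did not pass, at a median log2 difference of -0.54. With the block 6 were lower. Without replicate 2 of Snf1 the list median was -0.49, and fewer of the 10 were called lower than with all arrays. ANB1, for the hypoxic form of translation factor eIF5A, had signals of 3381 and 3151 in Snf1-I132G, against 755 and 699 in Snf1, and differed by 2.14 ± 0.15 log2 units (limma, adjusted p = 0.00184). It has a near-identical copy, HYP2, and how far its probe set tells them apart is not stated.

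AAC3, for the hypoxic ADP/ATP carrier, had signals of 124 and 153 in Snf1-I132G, against 44.7 and 34.4 in Snf1, and differed by 1.48 ± 0.21 log2 units (limma, adjusted p = 0.00733). The Snf1 signal of 34.4 lay close to the filter level of 33.93. With a filter at the 50th percentile AAC3 was not tested. The 3 falls were those of CYC7, HMG2, for the other HMG-CoA reductase, at -1.17 ± 0.19 (0.0109), and OLE1. HEM13 was thus neither with the 2 rises nor with the 3 falls, at -0.16 ± 0.28, and the hypoxic cytochrome oxidase subunit gene COX5B was at -0.14 ± 0.19, also not past the threshold. ANB1 and CYC1 are neighbours in the RefSeq gene order and their estimates had opposite signs.

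The anaerobic cell wall mannoprotein genes, of which 4 of 5 were bright enough to test, had no call: TIR2 was at 0.52 ± 0.16 (limma, adjusted p = 0.0579, and 0.0128 in the blocked fit), TIR1 at 0.26 ± 0.22, TIR3 at 0.25 ± 0.17 and TIR4 at 0.0017 ± 0.28. DAN1 was too dim to be tested. Among 9 genes for partners of Hap1 and Rox1 and for other oxygen regulators 1 fell and 8 did not pass, and with the block 2 were lower and 1 higher. The fall was that of HSP82, for the Hsp90 chaperone that assists Hap1, at -1.86 ± 0.26 (0.00733), on a probe set whose name does not end in a plain _at and which a near-identical gene may share. The corepressor gene CYC8 was at -0.47 ± 0.16 (0.0823, and 0.0217 in the blocked fit), SRO9, for a Hap1-associated RNA-binding protein, at 0.82 ± 0.38 (0.169, and 0.00178 in the blocked fit) and the co-chaperone gene YDJ1 at -0.27 ± 0.16 (0.246).

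The genes most like a member were sought among 5202 genes as those with the smallest Euclidean distance between log2 values over the 4 arrays, each gene centred on its own mean. For ROX1 they were KCS1, MEP1 and TAM41, at distances of 0.03, 0.06 and 0.08 log2 units, with log2 differences of -0.77, -0.79 and -0.84. For HAP1 on 10058_at they were VPS25, PTC6 and UBX3, at 0.02, 0.04 and 0.05. For HEM13 they were SSA1, YSA1 and ALE2, at 0.07, 0.07 and 0.08. For the HAP1 probe set 3270_f_at the nearest were SNR6, CDC65 and YHR214C-B, at 0.25, 0.35 and 0.36, farther than those of the other 3. CDC65 and YHR214C-B were also measured on probe sets ending in _f_at, which can match a family of transcripts. With 4 arrays many genes lie near one another, and the distances are a description.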

How the data were processed

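The deposited values are signal intensities per probe set, made by the authors with MAS5, per the submitters' processing notes, with no version stated there. Trimmed means (2% off each end) were 500 to 501, so the 4 arrays had been scaled alike. Of 9335 probe sets 60 were controls. Of the other 9275, 6504 had 1 gene in the platform annotation, 328 several and 2443 none given. All 10 member symbols matched RefSeq assembly R64, used for names and gene order only.

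Signals were taken as log2(value + 16), which understates changes of dim genes. Probe sets whose mean log2 value reached the 25th percentile were tested (6956) with limma 3.58.1 in R 4.3.3 (eBayes with an intensity trend, 2 residual degrees of freedom, prior 3.63). The fit was tested on simulated data. Genes measured by more than 1 probe set are represented by the brightest, and all HAP1 probe sets are given. Besides the members and SNF1, up to 4 genes of smallest p per list were named. HMG1, CTA1, OLE1, HEM25, SHM1, SHM2, CYC1, CYC3, COX5B, YHB1, SCS7 and the genes too dim to test were named after their values were seen. Members, lists and tests were chosen with earlier results of these data known.

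Same-numbered arrays deviated together from their groups' means (r = 0.515 across probe sets). The number was a block in an alternative fit, with 1 residual degree of freedom and a prior of 7.73. Its p-values thus rest mostly on the spread of all probe sets and on the uncertain pairing.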

Additional observations from a re-analysis of the deposited data

How the results depend on the processing

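The alternatives were 3 other scalings, a pseudocount of 1 or 64, dropping the filter or raising it to the 50th percentile (which leaves HEM3 without a value), eBayes without the trend or robust, the replicate block, 1 probe set per gene, and leaving out each array, where the lone array is assumed to vary like the other group. With 2 arrays a group, the spread of a single probe set rests on few values, and whether HEM14 or ROX1 passed depended on the fit. Causes of the shifts below were not tested.

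Probe sets called higher and lower numbered 709 and 1212, against 1354 and 1984 with the replicate block and 490 and 2114 with control centring, and leaving out arrays gave 325 to 664 higher and 451 to 1069 lower. Rises were 36.9% of calls, 47.5% with quantile normalization, 54.1% with median centring and 18.8% with control centring. At their brightest probe sets 0 members were higher and 1 lower. The block gave 1 and 4, control centring gave 4 lower, and quantile normalization, median centring, no filter and no trend gave 0 lower. Leaving out arrays gave 0 to 1 higher and 0 to 1 lower, and 2 were lower with HAP1 at 10058_at, an alternative chosen after seeing the data.

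HEM2 was at -0.42 with quantile normalization, -0.38 with median centring and -0.56 without the filter or the trend, and did not pass in these. With the replicate block HEM14 at -0.39, HEM15 at -1.06, ROX1 at -0.79 and HAP1 (3270_f_at) at 0.61 passed. With control centring HEM14 at -0.63, HEM15 at -1.29 and ROX1 at -1.02 passed, and HEM12 at -0.0527, HAP1 (3493_f_at) at -0.10, MET8 at -0.0193 and TIR4 at -0.23 turned negative, as did TIR4 at -4e-04 with a pseudocount of 1. Quantile normalization and median centring turned HEM3 to 0.0735 and 0.12, HEM4 to 0.14 and 0.15, HEM13 to 0.0375 and 0.0293, MRS4 to 0.0212 and 0.0335, and HMX1 to 0.0174 and 0.0453.

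Leaving out each array gave -0.46 to 0.0635 for HEM1, -0.61 to -0.52 for HEM2, -0.32 to 0.20 for HEM3, -0.10 to 0.0371 for HEM4, -0.16 to 0.52 for HEM12, -0.52 to 0.21 for HEM13, -1.51 to -0.61 for HEM15 and -1.11 to -0.48 for ROX1. HEM2 passed in none of these 4 fits. HAP1 ranged from -0.98 to -0.84 on 10058_at, from -0.0684 to 1.29 on 3270_f_at and from -0.15 to 0.42 on 3493_f_at. MRS3 ranged from -0.0115 to 0.94, HMX1 from -0.33 to 0.0492 and TIR4 from -0.33 to 0.33.

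In the lists, control centring gave 2 falls of the Hap2/3/4/5 genes, 1 of iron supply, 5 of heme A and lyases, 5 of Rox1 targets and 2 of regulator partners. The replicate block gave 5 falls of heme A and lyases, 1 of heme breakdown and binding, 11 of heme proteins, 6 of Rox1 targets and 2 of regulator partners, and 1 rise each of the siroheme, heme protein, mannoprotein and partner lists. Precursor supply had 2 falls with median centring. Heme A and lyases had 1 fall with quantile normalization and with median centring, mannoproteins 1 rise in these and with 1 probe set per gene, and Rox1 targets 1 rise at the 50th percentile filter. Leaving out arrays gave 0 to 3 falls of heme A and lyases, 3 to 6 of heme proteins 1 to 4 of Rox1 targets and 2 to 3 of precursor supply, and 0 to 1 rises of iron supply, precursor supply and partners. Over 35 other named genes and 524 comparisons, 485 kept direction and side of the threshold.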
